A study of Mus musculus with 8 samples.

Results

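The genes described are 49 genes of DNA break repair, the Fanconi anaemia pathway and the DNA damage checkpoint in mouse granulocyte-macrophage progenitors (GMP). Their probes were found by name, as every probe whose annotated symbol or synonym stands on the list, with no threshold on measured values. Of the 49 genes, 42 had a probe (79 probes), out of 16593 genes with a probe on the array as given, and 33 were bright enough to test (52 probes). RNA came from 4 GMP samples of SSB1 SSB2 KO mice (DKO) and 4 GMP samples of WT control mice, all from female C57BL/6 animals. The sort kept lineagelow, Sca-1- cells that were also c-Kit+, CD34high and CD16/32high. The sources used here give neither the age of the mice nor the way the genes were deleted. They also do not say whether each sample came from its own mouse, so the p-values rest on the spread among these samples, and that spread may be technical. Each sample was hybridised in 1 colour to an Illumina MouseRef-8 v2.0 BeadArray, on which a probe's brightness reports the abundance of 1 transcript, and the question was how the loss of both genes alters expression in these progenitors.

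SSB1 (gene Nabp2) and SSB2 (gene Nabp1) bind single-stranded DNA and take part in the response to DNA breaks and stalled replication forks. A break is sensed by the MRN complex and by checkpoint kinases, which halt the cell cycle, and it is then mended either by homologous recombination, which copies the sister chromatid, or by non-homologous end joining, which ligates the ends directly. The Fanconi anaemia pathway unhooks cross-links between DNA strands, and its loss in people leads to bone marrow failure, so blood progenitors are a tissue in which it is known to matter.

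The targeted genes were examined first. The brighter Nabp2 probe had normalized log2 intensities of 7.27, 7.43, 6.42 and 7.45 on the DKO arrays, against 8.96, 9.09, 8.13 and 9.10 on the control arrays. All 4 DKO values lay below all 4 control values, and the difference was -1.68 (SE 0.27), a 3.20-fold lower signal (adjusted p = 0.00198 in limma's moderated test). The dimmer Nabp2 probe did not pass (-0.41, SE 0.30, adjusted p = 0.355), and the Nabp1 probe was above background on 0 of 8 arrays. The position of these probes relative to the deleted parts was not examined, so they check the labels only in part.

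Across the arrays, 9774 to 11103 probes were detected in DKO samples and 10740 to 11227 in control samples (exact two-sided permutation p = 0.114). Mean raw intensity was 380 to 622 in DKO samples and 605 to 736 in control samples (exact permutation p = 0.114). The sort matched its GMP label in that all 11 marker genes with a probe were detected on all 8 arrays. Their normalized signal on a linear scale summed to 148000 to 153000 in DKO samples and 153000 to 168000 in control samples. By the brightest probe, 2 of them were lower in DKO. These were Csf2ra (log2 difference -0.68, adjusted p = 0.00814, limma) and Cd34 (log2 difference -1.42, adjusted p = 0.000858, limma), although the sort selected for the CD34 protein. Monocyte marker signal, normalized and on a linear scale, summed to 1020 to 1530 in DKO samples and 5130 to 7450 in control samples, and all 6 tested monocyte genes fell. Mature neutrophil markers summed to 37500 to 48400 in DKO samples and 35100 to 38200 in control samples. Erythroid markers summed to 255 to 673 in DKO samples and 640 to 1150 in control samples, megakaryocyte markers to 746 to 1930 in DKO samples and 904 to 1400 in control samples, and lymphoid markers to 1190 to 1440 in DKO samples and 1830 to 2510 in control samples. Of the defining markers, Mmp8, Ccr2, Gata1, Cd3e, Cd3g, Cd8a, Ms4a1 and Pax5 were detected on no array. In bulk samples, fewer cells of a type and less RNA per cell cannot be told apart, and the part of these shifts in the repair gene results was not tested.

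Most tested break repair genes did not pass the test between DKO and control GMP. Counting each gene by its brightest tested probe, 2 of 33 were higher in DKO (Xrcc4 and Lig4, partners in the final ligation step of end joining), 3 were lower (the helicase genes Wrn and Brip1, and Fanci of the Fanconi pathway) and 28 did not pass. That is 15.2% of the repair genes (19.2% of their 52 tested probes, beside 22.7% of all tested probes), beside 24.3% of all 7604 tested genes called by the same rule in either direction. Over all genes 10.1% were higher and 14.3% lower, against 2 and 3 of the 33 repair genes. Of all called probes 45.6% were higher, and that share was 5.96% with arrays aligned by their medians and 64.9% with arrays aligned by the medians of the tested probes. The median log2 difference of the repair genes was -0.11 beside -0.03 over all genes, and the median size of the difference was 0.22 beside 0.28. In the reported fit, both the share called and the typical size of the difference were thus below those of tested genes at large. The gap in the share called was not tested and did not hold in every setting. Aligning arrays by their medians gave 9 of 33 repair genes called, beside 25% of all tested genes. With arrays aligned by their medians, where the median of all tested probes stood at -0.40, the difference was negative for 32 of the 33 repair genes; the positive differences of Xrcc4, Hus1, Mre11a and Nhej1 given below flip on that scale, and that of Lig4 does not.

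**Figure D1:**
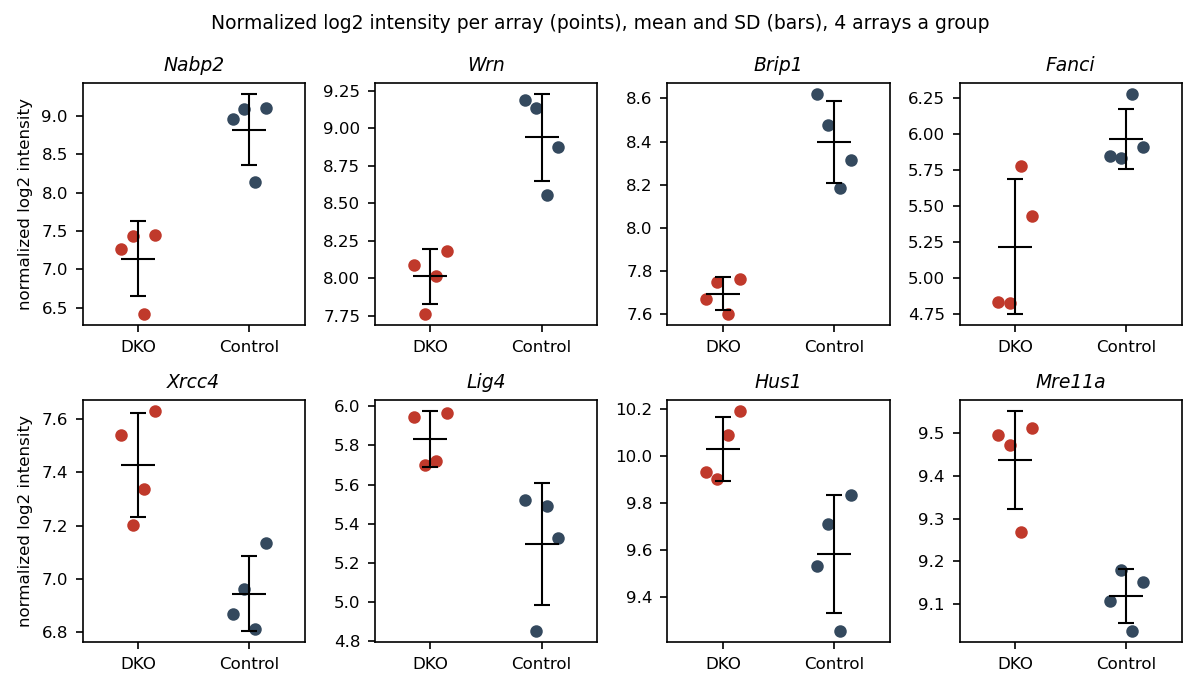
Normalized log2 intensity (y axis) of Nabp2 and of 7 repair genes with fully separated groups on each array, DKO samples left of control samples in each panel, with points for single arrays and bars for the mean and SD (4 arrays a group); each panel has its own scale. These 7 were taken from the 8 of 33 tested repair genes with such separation (Rad9a is not shown), beside 29.4% of all tested genes.

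Among the homologous recombination genes, 1 of 10 tested genes was lower in DKO (Wrn), beside 14.3% of all tested genes lower. In this group 0 were higher and 9 did not pass, with a median log2 difference of -0.10. Wrn, the RecQ-family helicase and exonuclease lost in Werner syndrome, read 8.09, 7.76, 8.02 and 8.18 on the DKO arrays, against 9.19, 9.13, 8.56 and 8.88 on the control arrays. Every DKO value lay below every control value, and the means were 8.01 ± 0.18 and 8.94 ± 0.29 (SD, n = 4 each). The difference of -0.93 (SE 0.17) is a 1.90-fold lower signal (adjusted p = 0.00331, limma). Before any normalization, Wrn intensities were 203.8, 302.7, 347.9 and 424.3 in DKO samples and 708.3, 946.3, 570.7 and 616.7 in control samples, which again do not overlap. Such downward separation in raw values was common, found for 27.4% of all tested genes. The call held in all 20 alternative ways of processing the arrays, with differences between -1.46 (arrays aligned by their medians) and -0.67.

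Wrn is 1 of a family of RecQ helicases, and its relatives Blm and Recql4 are set beside it here. Blm, the Bloom syndrome helicase that dissolves recombination intermediates, read 9.66, 9.56, 9.79 and 10.03 on the DKO arrays and 9.87, 9.80, 9.67 and 9.95 on the control arrays with its brighter probe. Those groups overlap throughout, and the difference was -0.07 with a 95% interval of -0.37 to 0.24. Recql4, the RecQ helicase linked to Rothmund-Thomson syndrome and a gene outside the 49, read 7.38, 7.21, 7.12 and 6.85 on the DKO arrays and 6.83, 6.49, 6.73 and 6.53 on the control arrays. It was 1.41-fold higher in DKO (log2 difference 0.50, adjusted p = 0.0356), with every DKO value above every control value. The Recql4 call was lost in 9 of 20 alternatives (adjusted p 0.0515 to 0.927), among them every fit that left out 1 array except those without DKO 4 or control 1, and with arrays aligned by their medians it read -0.04. The gap between Wrn and these relatives was not itself tested.

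Brca1, the tumour suppressor that promotes end resection and recombination, came nearest to the threshold among the rest of this group. It read 4.69, 5.02, 5.59 and 5.33 on the DKO arrays, where it was detected on 2 of 4, against 5.56, 5.60, 5.78 and 5.86 on the control arrays, where it was detected on all 4. The groups touch at DKO 3, and the log2 difference was -0.54 (SE 0.19, adjusted p = 0.0615). Bard1, its obligate partner in the E3 ligase complex, read 5.66, 5.41, 5.67 and 5.90 in DKO samples and 5.93, 5.37, 5.74 and 5.38 in control samples. These overlap, with a difference of 0.06 and a 95% interval of -0.31 to 0.43. Brca2, a tumour suppressor needed for homologous recombination, was -0.15 apart (95% interval -0.51 to 0.22), with its second probe at -0.11.

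The MRN sensor complex gave mixed readings. Mre11a, its nuclease subunit, read 9.50, 9.47, 9.27 and 9.51 in DKO samples and 9.11, 9.18, 9.04 and 9.15 in control samples with its brightest probe. All DKO values lay above all control values, and the difference was 0.32 (SE 0.12, adjusted p = 0.0751), which did not pass. The other tested Mre11a probes differed by 0.03 and -0.16, so the probes of this gene did not share a sign. Rad50, the ATPase that bridges the broken ends, read 9.10, 9.49, 9.13 and 9.56 in DKO samples and 9.41, 9.71, 9.62 and 9.76 in control samples. The groups overlap, with a difference of -0.30 (95% interval -0.64 to 0.03), and the dimmer Rad50 probe gave -0.28. Nbn, the third subunit, was detected on no array. The strand-exchange helpers Rad54l (0.07), Rad51ap1 (-0.10) and Rad52 (-0.11) differed by less than the SE of each difference.

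In the Fanconi group, 2 of 5 tested genes were lower in DKO (Brip1 and Fanci), beside 14.3% of all tested genes lower. In this group 0 were higher and 3 did not pass. All 5 differences were negative, with a median of -0.24, beside 23 of the 33 repair genes and 4013 of all 7604 tested genes negative. Brip1, also called FANCJ, is a helicase that binds BRCA1 and unwinds DNA during cross-link repair. It read 7.67, 7.75, 7.60 and 7.76 on the DKO arrays, against 8.62, 8.48, 8.18 and 8.31 on the control arrays. The groups lie well apart, at 7.69 ± 0.08 in DKO and 8.40 ± 0.19 in control (SD, n = 4 each), a difference of -0.70 (SE 0.13) or 1.63-fold lower (adjusted p = 0.00405, limma). Raw Brip1 intensities were 175.4, 301.4, 288.0 and 342.4 in DKO samples and 513.8, 638.3, 468.0 and 452.8 in control samples, without overlap, beside 27.4% of all tested genes separated downward in raw values. This call too held in all 20 alternatives, with differences between -1.24 (arrays aligned by their medians) and -0.47 (the authors' processed values).

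Fanci, the partner of FANCD2 in the complex that is ubiquitinated when cross-links are met, read 4.84, 4.82, 5.78 and 5.43 on the DKO arrays and 5.84, 5.83, 6.28 and 5.91 on the control arrays. It was detected on 2 of 4 DKO arrays and on all 4 control arrays, and the highest DKO value, DKO 3, lay just under the lowest control value. The difference was -0.75 (SE 0.22), or 1.68-fold lower (adjusted p = 0.0329, limma). The call was lost in 6 of the 8 fits that left out 1 array (adjusted p 0.0608 to 0.0905), those without DKO 1, DKO 2 or any 1 of the 4 controls. Over all alternatives it was lost in 12 of 19, among them the authors' processed values, where the difference was -0.20 (adjusted p = 0.0889).

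The partner Fancd2 read 7.80, 7.32, 7.56 and 7.75 in DKO samples and 7.63, 7.81, 7.65 and 7.80 in control samples. The groups overlap, and its difference was -0.11 (95% interval -0.42 to 0.19). Fancl, the E3 ligase subunit of the core complex, differed by -0.22 (95% interval -0.64 to 0.20, adjusted p = 0.431) and by -0.10 with its second probe. Fancc, another core complex subunit, differed by -0.24 (95% interval -0.60 to 0.13, adjusted p = 0.327) with its brightest probe. Its dimmer probe read 5.04, 4.72, 4.99 and 5.54 in DKO samples, detected on 1 of 4, against 5.73, 5.65, 5.99 and 5.56 in control samples, detected on all 4. That probe passed at -0.66 (SE 0.18, adjusted p = 0.0252) with groups that do not overlap, but it passed in only 3 of the 8 fits without 1 array; it was lost without DKO 2, DKO 3, control 1, control 2 or control 3 (adjusted p 0.0524 to 0.0716). Over all alternatives its call was lost in 11 of 18, with differences of -0.18 with no background correction (adjusted p = 0.101), -0.16 in the authors' processed values (adjusted p = 0.112) and -0.29 with arrays aligned by the medians of the tested probes (adjusted p = 0.303). Fancb and Fancm were detected on no array, and Fancg on 1 DKO array and 2 control arrays. Fanca, Fance and Fancf had no probe here and were not analysed here, so most of the core complex has no reading.

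Of the end joining genes, 2 of 5 tested genes passed upward in DKO (Xrcc4 and Lig4), beside 10.1% of all tested genes higher. In this group 0 were lower and 3 did not pass, with a median of 0.26. The upward count was 0 without DKO 1, DKO 4 or control 2, and with arrays aligned by their medians. Xrcc4, the scaffold that stabilises DNA ligase IV, read 7.54, 7.20, 7.34 and 7.63 on the DKO arrays, against 6.87, 6.96, 6.81 and 7.14 on the control arrays. Every DKO value lay above every control value, at 7.43 ± 0.19 and 6.94 ± 0.14 (SD, n = 4 each). The difference was 0.48 (SE 0.14), or 1.40-fold higher (adjusted p = 0.0309, limma). Raw Xrcc4 intensities overlap, at 169.3, 241.7, 258.5 and 321.0 in DKO samples and 234.1, 306.3, 253.0 and 264.1 in control samples. With arrays aligned by their medians it read -0.06. The call was lost in 5 of the 8 fits without 1 array, those without DKO 1, DKO 4, control 1, control 2 or control 3 (adjusted p 0.0537 to 0.0841).

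Lig4, the ligase that seals the ends with XRCC4, read 5.95, 5.70, 5.72 and 5.97 on the DKO arrays, detected on all 4, against 5.52, 4.85, 5.49 and 5.32 on the control arrays, detected on 3. The DKO values lay above all control values, the lowest being control 2. The difference was 0.54 (SE 0.17), or 1.45-fold higher (adjusted p = 0.0413, limma). It was lost without DKO 1, DKO 3, DKO 4, control 2 or control 4 (adjusted p 0.0535 to 0.111), and over all alternatives the call was lost in 12 of 19. The difference ran between 0.14 in the authors' processed values, where it did not pass (adjusted p = 0.158), and 0.82 with arrays aligned by the medians of the tested probes; it also did not pass with no background correction (0.16, adjusted p = 0.144). Raw Lig4 intensities overlap, at 124.8, 167.6, 159.8 and 178.1 in DKO samples and 160.0, 156.5, 165.7 and 156.0 in control samples. The direction upward in DKO is thus a statement about normalized values for both ligation partners.

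Nhej1, also called XLF, which joins XRCC4 in filaments at the break, read 8.18, 7.67, 7.82 and 7.68 in DKO samples and 7.79, 7.57, 7.64 and 7.30 in control samples. The groups overlap, and the difference of 0.26 (95% interval -0.09 to 0.62) did not pass (adjusted p = 0.259). Xrcc6, the Ku70 subunit that first caps broken ends, read 11.56, 11.60, 11.76 and 11.82 in DKO samples and 11.63, 11.79, 11.59 and 11.85 in control samples. It overlapped fully, at -0.03 (95% interval -0.31 to 0.25), and its other probes gave 0.04 and -0.14. Prkdc, the DNA-PK catalytic subunit, was dim and differed by -0.06 (95% interval -0.58 to 0.45, adjusted p = 0.864). The Ku80 gene Xrcc5 was detected on no array, and the Artemis gene Dclre1c had no probe here.

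**Figure D2:**
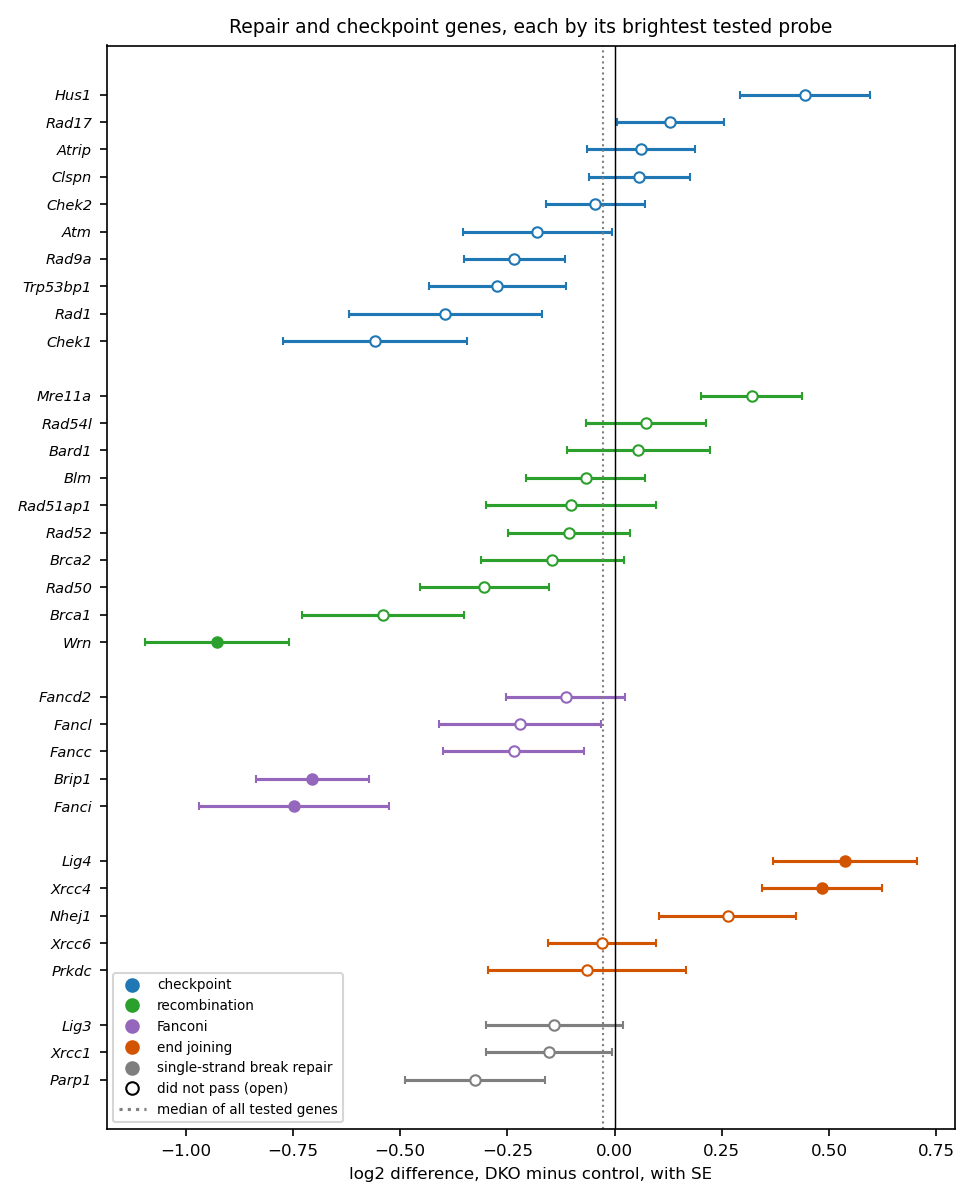
Log2 difference, DKO minus control (x axis), of each tested repair gene by its brightest probe, in rows grouped by pathway, with 1 SE as the bar; filled points passed adjusted p 0.05 and the dotted line is the median of all tested genes. The end joining genes Xrcc4 and Lig4 lie right of 0, Wrn, Brip1 and Fanci lie left of it, and no checkpoint gene is filled.

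In the checkpoint group 0 of 10 tested genes passed by their brightest probe, beside 24.3% of all tested genes. The median difference was -0.11, and 2 of the 10 had an unadjusted p under 0.05 (limma), beside 2948 of all 7604 tested genes. Counted by any tested probe, Hus1 was higher and Chek1 and Atm were lower. HUS1 is 1 of 3 subunits of the 9-1-1 clamp, the ring that is loaded at damaged DNA to activate the ATR kinase. Its brightest probe read 9.93, 9.90, 10.09 and 10.19 in DKO samples, against 9.53, 9.71, 9.26 and 9.83 in control samples. The groups do not overlap, and the difference was 0.44 (SE 0.15, adjusted p = 0.057). A second Hus1 probe read 9.72, 9.66, 9.68 and 9.99 in DKO samples and 9.35, 9.37, 8.95 and 9.52 in control samples, a difference of 0.46 (SE 0.15) that passed at adjusted p = 0.0494. The dimmest Hus1 probe read 8.37, 8.38, 8.50 and 8.72 in DKO samples and 8.02, 8.18, 7.98 and 8.20 in control samples, a difference of 0.40 (SE 0.13) that passed at adjusted p = 0.0492. All 3 probes thus separated the groups by a similar amount and sat on either side of the threshold.

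The Hus1 calls were not stable to single arrays or to scale. The second probe lost its call in 7 of the 8 fits without 1 array, all but the fit without control 4 (adjusted p 0.0563 to 0.116), and the dimmest in 6, all but those without DKO 1 or DKO 2 (adjusted p 0.0723 to 0.121). With arrays aligned by their medians these probes read -0.04 and -0.13, so the direction flips with that scaling.

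In the reported fit, the other clamp subunits differed in the opposite direction to Hus1, but neither passed and the gap to Hus1 was not tested. With arrays aligned by their medians, all 10 tested checkpoint genes were negative. Rad9a read 7.82, 7.57, 7.70 and 7.58 in DKO samples and 7.88, 7.92, 7.95 and 7.87 in control samples. Its DKO values all lay below its control values, by a small -0.23 (95% interval -0.49 to 0.02, adjusted p = 0.172). Rad1 read 8.15, 7.13, 7.24 and 7.80 in DKO samples and 8.20, 7.78, 8.12 and 7.81 in control samples. DKO 1 and DKO 4 overlapped the controls, and the difference was -0.40 (95% interval -0.89 to 0.10, adjusted p = 0.229). Rad17, which loads the clamp, differed by 0.13 (95% interval -0.14 to 0.40).

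Among the kinases, Chek1, the effector of the replication checkpoint, read 5.96, 4.98, 5.73 and 5.82 in DKO samples and 6.08, 6.31, 5.92 and 6.42 in control samples with its brightest probe. DKO 1 overlapped the controls, and the difference of -0.56 (SE 0.21) did not pass (adjusted p = 0.0834). Its dimmer probe read 4.77, 4.95, 4.87 and 5.02 in DKO samples, where it was not well above background on any array, against 5.35, 5.46, 5.25 and 5.72 in control samples, where it was detected on all 4. That probe was at least 1.17-fold lower in DKO, a bound set by the dimmest detected signal on each DKO array (adjusted p = 0.018, limma). The call was lost in 8 of 18 alternatives, among them the fits without control 2 (adjusted p = 0.0559) or control 4 (adjusted p = 0.0514). The difference of this probe was -0.54 as reported, -0.14 with no background correction (adjusted p = 0.148), -0.13 in the authors' processed values (adjusted p = 0.161) and -0.09 with arrays aligned by the medians of the tested probes (adjusted p = 0.776), so the bound holds for the reported scale only.

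Atm, the kinase activated by double-strand breaks, read 7.53, 7.99, 7.52 and 7.83 in DKO samples and 8.16, 7.60, 7.72 and 8.12 in control samples with its brightest probe. These overlap, and the difference was -0.18 (95% interval -0.56 to 0.20, adjusted p = 0.485). The dimmer Atm probe read 5.92, 6.41, 6.49 and 6.76 in DKO samples and 7.17, 6.96, 6.72 and 7.18 in control samples, overlapping only at DKO 4. It passed at -0.61 (SE 0.19, adjusted p = 0.0386), but was lost in 6 of the 8 fits without 1 array, all but those without DKO 4 or control 3 (adjusted p 0.0542 to 0.103). Chek2, the effector downstream of ATM, differed by -0.04 (95% interval -0.30 to 0.21) and by -0.31 with its dimmer probe. Atrip, the partner that brings ATR to single-stranded DNA, read 8.59, 8.53, 8.49 and 8.43 in DKO samples and 8.55, 8.39, 8.60 and 8.25 in control samples. It overlapped, at 0.06 (95% interval -0.22 to 0.34).

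The remaining checkpoint readings were small. Clspn, the adaptor that lets ATR phosphorylate CHK1, differed by 0.06, 0.16 and 0.21 on 3 probes, none of which passed. Trp53bp1, which shields ends from resection, differed by -0.27 (95% interval -0.63 to 0.08, adjusted p = 0.242) and by 0.01 on its second probe, so its probes split in sign. Topbp1 was detected on 2 control arrays and no DKO array, and was not tested. Atr and Mdc1 had no probe here.

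The single-strand break repair genes gave 0 calls among 3, beside 24.3% of all tested genes called. Parp1, the sensor that marks nicks with poly(ADP-ribose), read 10.32, 10.92, 10.89 and 10.86 in DKO samples and 10.85, 11.18, 11.20 and 11.06 in control samples. DKO 1 stood apart from the other DKO arrays, and the difference was -0.32 (95% interval -0.69 to 0.04, adjusted p = 0.175), with the other Parp1 probes at -0.02 and -0.09. The scaffold gene Xrcc1 differed by -0.15 (95% interval -0.48 to 0.17) and the ligase gene Lig3 by -0.14 (95% interval -0.49 to 0.21).

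**Figure D3:**
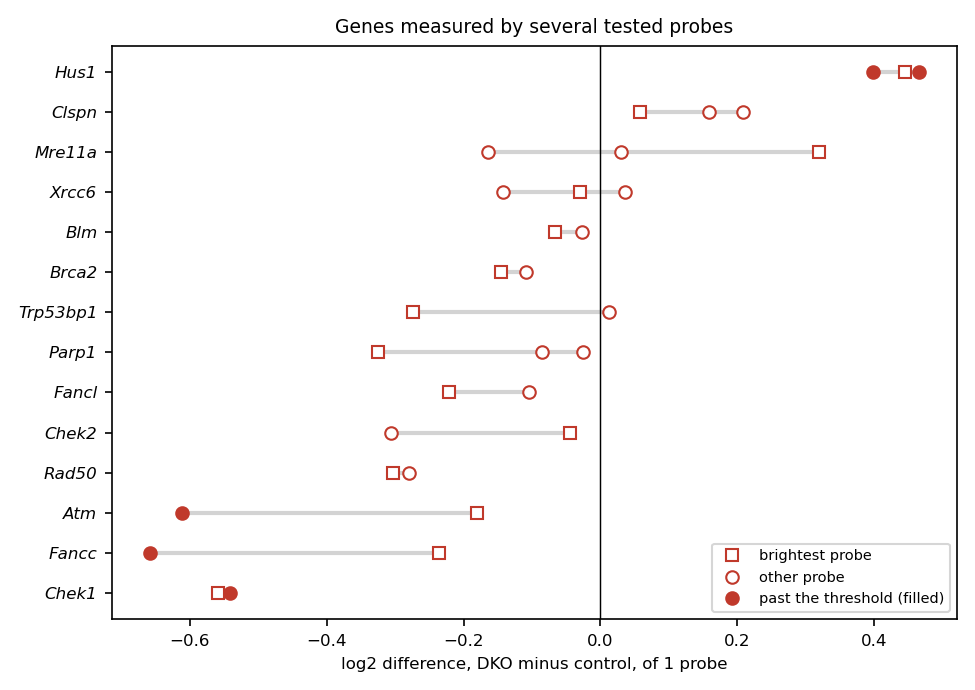
Log2 difference, DKO minus control (x axis), of every tested probe of the 14 repair genes with several tested probes (rows), squares for the brightest probe and circles for the others; filled points passed adjusted p 0.05. Probes of Atm, Chek1, Fancc and Hus1 fall on either side of the threshold.

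Of the 14 repair genes with several tested probes, 11 had the same sign on all of them and 3 did not (Mre11a, Trp53bp1 and Xrcc6). In 4 genes (Atm, Chek1, Fancc and Hus1) at least 1 probe passed, and in all 4 another probe did not. Counted by any tested probe, 3 repair genes were higher and 6 lower, beside 11.8% and 15% of all genes by that rule. Wrn, Brip1, Fanci, Xrcc4 and Lig4 each had 1 tested probe, so no second reading stands behind those calls.

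The 28 repair genes that did not pass by their brightest probe differed by -0.56 to 0.44, with a median of -0.11, and 21 of them by less than 0.3 in size. Their SEs were 0.12 to 0.23. Of the 9 genes with a probe but no test, Topbp1, Rad51c and Fancg were detected on 1 to 3 arrays, and Palb2, Nbn, Exo1, Fancb, Fancm and Xrcc5 on none. Rbbp8, the resection factor CtIP, also had no probe here.

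Groups that do not overlap were found for 8 of the 33 repair genes, beside 29.4% of all tested genes. DKO lay above in 4 (Hus1, Mre11a, Xrcc4 and Lig4) and below in 4 (Rad9a, Wrn, Brip1 and Fanci). In raw intensity, before normalization, the DKO arrays lay below all controls for 10 of 33 (30.3%, beside 27.4% of all genes) and above for 0, beside 0.579% of all genes. Wrn, Brip1 and Fanci were among the 10, and none of the end joining genes was.

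**Figure D4:**
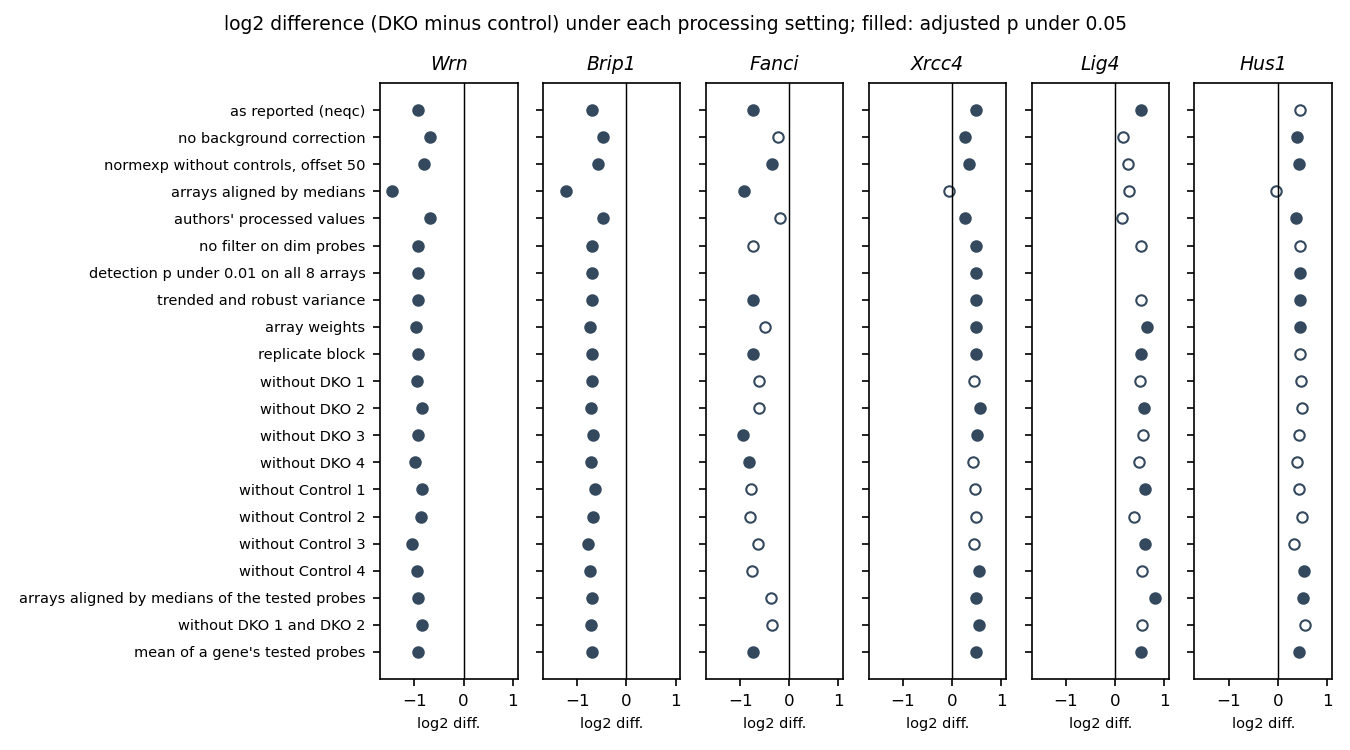
Log2 difference, DKO minus control (x axis), of the called repair genes and of Hus1 under each way of processing the arrays (rows); filled points passed adjusted p 0.05. Wrn and Brip1 stay below 0 and past the threshold in every setting, whereas Xrcc4 and Hus1 fall just below 0 with arrays aligned by their medians.

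Promoter sequences are shown because many repair genes are textbook targets of the cell-cycle factor E2F, and because the called genes can be set beside uncalled ones. RefSeq promoter windows on GRCm38.p6, 250 bases before to 50 after each start, were matched for 41 of the 49 genes (45 windows). The letters searched on both strands were TTTCCCGC, TTTCGCGC, TTTGCCGC and TTTGGCGC for E2F, TTTGAA for the cell cycle homology region and CCAAT for the CCAAT box, and no matches overlapped. The E2F letters stood in 10 of 45 repair gene windows (22.2%), beside 2.26% of all 32851 windows. The CCAAT letters stood in 51.1% beside 37.4%, and TTTGAA in 4.44% beside 17.9%. The stretches below are the 250 bases before the start, 5′ to 3′ on the gene's strand, with the E2F and CCAAT matches on either strand in capitals.
Brip1, lower in DKO, chr11:86201194-86201443, minus strand: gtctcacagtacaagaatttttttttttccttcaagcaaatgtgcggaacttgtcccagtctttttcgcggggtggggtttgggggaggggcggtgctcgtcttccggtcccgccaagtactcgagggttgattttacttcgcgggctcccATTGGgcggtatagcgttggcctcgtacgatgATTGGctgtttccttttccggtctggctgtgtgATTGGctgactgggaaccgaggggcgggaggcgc
Xrcc4, higher in DKO, chr13:90089609-90089858, minus strand: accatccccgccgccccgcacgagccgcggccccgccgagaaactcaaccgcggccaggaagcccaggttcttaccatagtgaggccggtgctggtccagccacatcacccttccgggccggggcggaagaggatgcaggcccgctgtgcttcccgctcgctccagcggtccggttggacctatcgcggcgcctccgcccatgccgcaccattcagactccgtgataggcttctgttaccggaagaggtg
Chek2, not passed, chr5:110839733-110839982, plus strand: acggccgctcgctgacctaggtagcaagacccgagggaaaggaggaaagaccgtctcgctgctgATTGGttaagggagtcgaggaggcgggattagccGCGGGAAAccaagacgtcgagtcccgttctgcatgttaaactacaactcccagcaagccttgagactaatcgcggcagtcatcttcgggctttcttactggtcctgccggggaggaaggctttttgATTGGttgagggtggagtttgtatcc
Brca2, not passed, chr5:150522371-150522620, plus strand: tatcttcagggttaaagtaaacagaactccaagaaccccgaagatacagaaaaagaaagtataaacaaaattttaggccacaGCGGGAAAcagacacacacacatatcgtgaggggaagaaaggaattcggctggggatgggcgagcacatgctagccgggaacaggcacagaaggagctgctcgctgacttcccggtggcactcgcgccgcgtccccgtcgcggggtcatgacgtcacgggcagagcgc
Xrcc6, not passed, chr15:82016119-82016368, plus strand: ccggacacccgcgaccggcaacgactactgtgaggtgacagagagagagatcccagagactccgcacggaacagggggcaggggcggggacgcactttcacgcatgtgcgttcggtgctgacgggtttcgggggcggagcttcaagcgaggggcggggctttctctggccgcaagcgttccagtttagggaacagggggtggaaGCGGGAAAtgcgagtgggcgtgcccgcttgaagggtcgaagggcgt

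Brip1 has 3 CCAAT matches, read as ATTGG on this strand, and no E2F match. Xrcc4 has neither. Chek2, Brca2 and Xrcc6 each carry GCGGGAAA, the reverse complement of TTTCCCGC. The printed genes are a selection and do not stand for their groups. Among uncalled tested repair genes, E2F letters stood in only 5 of 26 windows (19.2%). They stood in 0 of 3 windows of the higher genes and 0 of 2 of the lower genes, too few to compare. The tested genes with E2F letters were Chek2, Clspn, Brca2, Bard1 and Xrcc6. By the brightest probe 0 of these 5 passed, beside 15.2% of the tested repair genes and 24.3% of all tested genes. That gap was not tested. Fanci and both Lig4 windows held none of the 3 motifs. A match is a run of letters and not a measured binding site, and the table held no Wrn window.

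Most other tested genes of break repair and the checkpoint did not pass either. Of 52 tested, 1 was higher (Recql4, above), 3 were lower and 48 did not pass. That is 7.69% called, beside 24.3% of all tested genes, with a median of -0.06. The count moved with the processing. With arrays aligned by their medians, 0 were higher and 11 lower, beside 1.39% and 23.6% of all tested genes in that setting. By the mean of a gene's tested probes, 4 were higher and 5 lower, beside 11% and 14.6% of all tested genes. Zranb3, a translocase that remodels stalled forks, read 6.90, 6.98, 7.65 and 7.46 in DKO samples and 8.24, 8.23, 8.21 and 8.16 in control samples. Its groups were far apart, at -0.96 (SE 0.17), or 1.95-fold lower (adjusted p = 0.00331, limma). Cdc25b, a phosphatase that drives entry into mitosis, was -0.65 apart (adjusted p = 0.00538), detected on 1 DKO array and all 4 control arrays, but -0.16 in the authors' processed values (adjusted p = 0.0839). Parp3, a relative of PARP1 that acts with end joining, was detected on 0 of 4 DKO arrays and all 4 control arrays. That bounds it at no less than a 1.27-fold lower signal on the reported scale (adjusted p = 0.00393, limma). Its difference was -0.83 as reported, -0.24 with no background correction (adjusted p = 0.0353) and -0.21 in the authors' processed values (adjusted p = 0.04). With arrays aligned by the medians of the tested probes it was -0.38 (adjusted p = 0.242). The bound thus holds for the reported scale only.

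Cell-cycle genes are given beside these counts because many repair genes are transcribed in S and G2 phase. Of 19 tested S phase genes, 3 were higher, 1 was lower and 15 did not pass (median 0.04). That is 21.1% called, beside 24.3% of all tested genes. Ccne1, cyclin E1, averaged 7.74 ± 0.17 in DKO samples and 6.73 ± 0.29 in control samples (SD, n = 4 each), without overlap and 2.01-fold higher in DKO (adjusted p = 0.00204, limma). Ccne2 was also higher (1.25, adjusted p = 0.00155, detected on all 4 DKO arrays and 1 control array), as was Rrm2, the inducible subunit of ribonucleotide reductase (0.84, adjusted p = 0.00376). Cdt1, which licenses replication origins, was lower (-0.52, adjusted p = 0.021). Of 13 tested G2 and M phase genes, the mitotic kinases Aurka (0.58, adjusted p = 0.013) and Plk1 (0.58, adjusted p = 0.0153) were higher, the spindle gene Nusap1 (-0.53, adjusted p = 0.0115) was lower and 10 did not pass. That is 23.1% called, beside the same 24.3%. With arrays aligned by their medians the calls of Ccne1 (0.46), Rrm2 (0.40), Aurka (0.18) and Plk1 (0.22) were lost (adjusted p 0.25 to 0.673), and that of Ccne2 was not. Without control 1 or control 2, Plk1 (adjusted p = 0.0508 and 0.0562) and Cdt1 (adjusted p = 0.0585 and 0.0553) were lost. The part of these cell-cycle differences in the repair gene results was not tested.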

How the data were processed

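Per the labels, total RNA was extracted on RNeasy columns, treated with DNase and turned into biotinylated cRNA with the Illumina TotalPrep kit. Per the submitters' processing notes GenomeStudio was used; its version and role are not given. The deposited table holds raw bead intensity per probe and array, not background-corrected as its values show, and beside it, per the file headers, a p-value of detection. The authors' second table holds log2 values, quantile-normalized and centred per probe as judged against the intensities (r 0.9991 to 0.9995 over probes, column medians -0.0044 to -0.0005); its centre is not stated, and it was an alternative only.

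The 25697 probes were normalized with neqc of limma 3.58.1 (R 4.3.3), a normexp background correction (negative controls taken from the detection p-values, offset 16) followed by quantile normalization. Differences are on that log2 scale, which understates the change of dim probes. The platform annotation gave 1 symbol for 23978 probes and none for 1719; 23962 matched RefSeq GRCm38.p6 by gene identifier. The 10856 probes detected (p-value under 0.05) on 4 or more of the 8 arrays were tested with lmFit and eBayes, without covariates, and p-values were adjusted by Benjamini-Hochberg over all of them. A gene is counted by its brightest tested probe, and a call is an adjusted p under 0.05. The fit was tested on simulated data.

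The members and lists were chosen with earlier results of these data known. Named were the called members, the nearest uncalled ones in each pathway, those with disagreeing probes and the leading genes of the other lists; further genes were chosen after their values were seen. The reported fit did not pair the arrays by replicate number, and whether they are paired is not settled. Same-numbered arrays deviated together with r of 0.192, 0.0259, -0.111 and 0.195 for numbers 1 to 4. The best match was the same number for 1 and 4, and another number for 2 and 3. The labels and headers used give no slide or scan batch. Alternatives changed the background correction, scaling, filter, variance model, array weights, block, probe rule and set of arrays. The number of arrays limits the precision.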

Additional observations from a re-analysis of the deposited data

Results flagged for a closer look

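Dixon's test was run on 74 groups of 4 arrays, and 5 had 1 array far from the others; chance gives about 1 in 20. Mre11a was lowest on DKO 3 with its brightest probe, at 9.27 against 9.47 to 9.51 on the other DKO arrays. Parp1 was lowest on DKO 1, at 10.32 against 10.86 to 10.92. Clspn was highest on DKO 4, at 9.70 against 9.47 to 9.51. The bright Nabp2 probe was lowest on control 3, at 8.13 against 8.96 to 9.10. Mean raw intensity was highest on control 2, at 736 against 605 to 620 on the other control arrays. The cause was not tested for any of these.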

How the results depend on the processing

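Wrn, Brip1 and the bright Nabp2 probe kept their direction and their call in all 20 alternatives. With arrays aligned by their medians, 148 probes were higher and 2335 lower, against 1125 and 1344 as reported. The repair genes gave 0 higher and 9 lower there, with a median of -0.65, beside 1.39% higher and 23.6% lower of all tested genes. The signs of Xrcc4 (-0.0585) and of all 3 Hus1 probes (-0.0384, -0.13 and, for the brightest, -0.0359) turned in that setting. So did those of the uncalled Mre11a (-0.20) and Nhej1 (-0.28). The median of the tested probes moved to -0.40 there. The next 3 alternatives were chosen after seeing the data. With arrays aligned by the medians of the tested probes, 1750 probes were higher. Counting a gene by any tested probe gave 6 repair genes lower. Without DKO 1 and DKO 2, 1 repair gene was higher. Leaving out each array in turn gave 665 to 1161 probes higher and 864 to 1354 lower, and 0 to 2 higher, 2 to 4 lower and a median of -0.17 to -0.06 for the repair genes. The lowest probe counts, 665 and 864, came without control 2, and the repair genes gave 0 higher without DKO 1, DKO 4 or control 2. With the replicate block, 1102 probes were higher and 1318 lower, and 2 repair genes were higher and 4 lower, since Brca1 passed (adjusted p = 0.0384), while the dimmer Atm probe (adjusted p = 0.0524) and the dimmest Hus1 probe (adjusted p = 0.0633) lost their calls. The cause of these shifts was not tested. Dim probes (Fanci, Lig4, Brca1 and the dim probes of Chek1 and Fancc) are limited by signal over background.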
